A study of Mus musculus with 4 samples.

Results

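The genes described here handle fatty acids, cholesterol and other lipids. They were picked by symbol from a fixed list of 42, all of which were in the deposited expression table of 15367 genes. The 39 whose mean over the 4 value columns reached 1 were kept, and 9805 genes of the whole table met the same minimum.

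RNA had been sequenced from CD8 T cells of the liver of adult C57BL/6 mice. There were 2 libraries labelled perforin knockout, with replicate numbers 1 and 2, and 2 wild type libraries, numbered the same way. All mice, controls included, had eaten an MCD diet for 4 weeks, and the cells had been sorted by flow cytometry. The MCD diet lacks methionine and choline and is widely used to produce fatty liver with inflammation in mice. The study was framed as one of perforin, the pore-forming protein of cytotoxic granules, in such steatohepatitis. The sources used here name neither the perforin allele nor the number of animals behind each library, and do not say whether the libraries of a group came from separate animals. The p-values therefore reflect the spread between these libraries alone, which may be technical.

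T cells burn fatty acids in mitochondria, where the carnitine palmitoyltransferases bring acyl chains across the membranes and a cycle of dehydrogenase, hydratase and thiolase steps shortens them. Activated T cells also build fatty acids and cholesterol for new membranes, under the SREBP transcription factors, and pass surplus sterol out through ABC transporters that are controlled by the oxysterol receptors LXR. Uptake of lipid from outside goes through the scavenger receptor CD36 and cytosolic fatty acid binding proteins, and in tissue-resident memory CD8 T cells of mouse skin the binding proteins FABP4 and FABP5 are known to serve this uptake.

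Values are FPKM, meaning sequenced fragments scaled for transcript length and for the size of the library. This unit was read from the values, since neither the header nor the labels name it. The column totals were 334493 and 383498 in the knockout-labelled libraries and 378364 and 392785 in wild type. Read depth is unknown, so no counting interval is given. Prf1, the perforin gene itself, had 95.4 and 98.7 FPKM in the knockout-labelled libraries, against 125 and 113 FPKM in wild type (log2 fold change -0.29, SE 0.24, limma adjusted p = 0.873), so the gene-level value did not check the labels and every direction below rests on the labels alone. Knockout-labelled replicate 1 stood apart, with Pearson correlations of 0.914 to 0.924 with the other libraries across genes, which are not independent replicates, against 0.961 to 0.969 among the other 3. The summed FPKM of 7 T cell markers was 2566 and 3107 in the knockout-labelled libraries and 3276 and 3135 in wild type, and that of 10 dendritic and B cell markers was 1394 and 2028 in the knockout-labelled libraries and 3641 and 1715 in wild type. In bulk RNA, more cells of a type and more RNA per cell cannot be told apart.

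Most genes of fatty acid breakdown, the SREBP2 gene and the acid lipase gene had means above 10 FPKM, while Cpt2, the PPAR receptors and the uptake genes had means below 5 FPKM. Of the 42 genes, 2 had a mean of at least 100 FPKM over the 4 libraries, 20 lay between 10 and 100, 17 between 1 and 10, and 3 under 1. Acaa2, a mitochondrial thiolase of fatty acid oxidation, and Nr1h2, which encodes LXR beta, had the highest means. They were 133 ± 23.4 FPKM (SD over 4 libraries) for Acaa2 and 133 ± 13.3 FPKM for Nr1h2. These did not differ beyond their spread. Acly, the enzyme that makes cytosolic acetyl-CoA from citrate, followed at 84.5 ± 7.65 FPKM and Acsl5, an acyl-CoA synthetase, at 64.3 ± 12.2 FPKM. The genes left out were Ppara, listed at 0 in all 4 libraries, Ppard with a mean of 0.267 FPKM and Acaca, the acetyl-CoA carboxylase of fatty acid synthesis, with a mean of 0.550 FPKM. Just inside the minimum stood the cholesterol exporter gene Abca1 (mean 1.22 FPKM) and Pparg (1.58 FPKM).

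**Figure D1:**
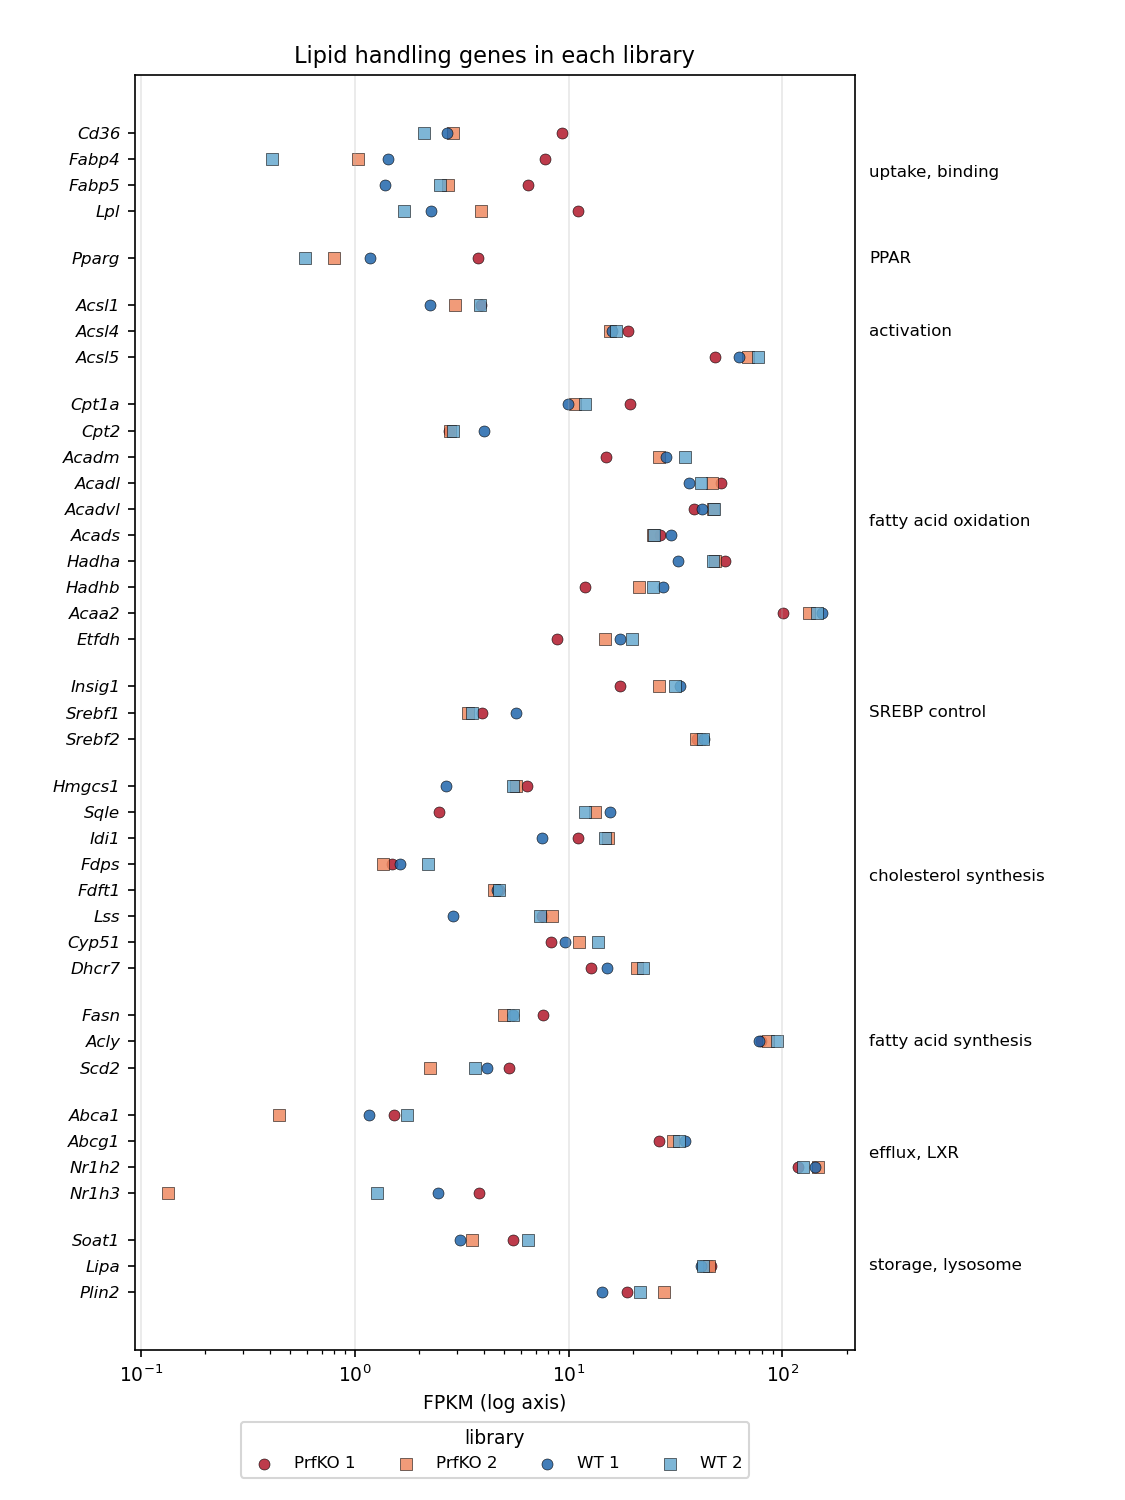
FPKM on a log axis of the 39 kept lipid genes, grouped by role, with a point for each library: PrfKO 1 and PrfKO 2 are the knockout-labelled libraries and WT 1 and WT 2 the wild type ones. Uptake genes and Pparg lie below 12 FPKM with PrfKO 1 to the right of the other 3 libraries, while Srebf2 and Lipa have nearly coinciding points near 40 FPKM.

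None of the 39 lipid genes passed limma's moderated test at an adjusted p of 0.05, two-sided with Benjamini-Hochberg adjustment over the 9805 genes, where 0% of all tested genes passed. The smallest adjusted p among the 39 was 0.866. At an unadjusted p under 0.05 there was 1 of the 39, Lpl, higher in the knockout-labelled libraries. Of all tested genes 4.79% reached that level, 2.07% higher and 2.72% lower. An exact permutation test of 2 against 2 libraries cannot give a two-sided p below 0.333. Differences below are therefore given as values.

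In both knockout-labelled libraries, 8 of the 39 (20.5%) were higher than in both wild type libraries, against 13.9% of all tested genes, and 9 (23.1%) were lower, against 21.9%. After upper-quartile rescaling, which sets the same 75th percentile of the values above 0 in each library, there were 9 higher (23.1%) and 6 lower (15.4%), against 17.9% and 18.1% of all tested genes. Cpt2, Fdps and Srebf2 were no longer lower in both, and Plin2 became higher in both. The rescaling shifted the whole table and put the median log2 fold change of all tested genes at 0.0088. Without it, the median log2 fold change, labelled knockout minus wild type on log2(FPKM + 1), was -0.052 over the 39 and -0.080 over all tested genes. With 1 library left out, the remaining 3 separate more easily. Without knockout-labelled replicate 1, 11 members were higher and 17 lower, against 31.9% and 34.2% of all tested genes. Without knockout-labelled replicate 2, 17 were higher and 15 lower, against 30.1% and 48.9%. Without wild type replicate 1, 10 were higher and 16 lower, against 26.1% and 36.3%. Without wild type replicate 2, 14 were higher and 12 lower, against 26.6% and 37.6%.

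**Figure D2:**
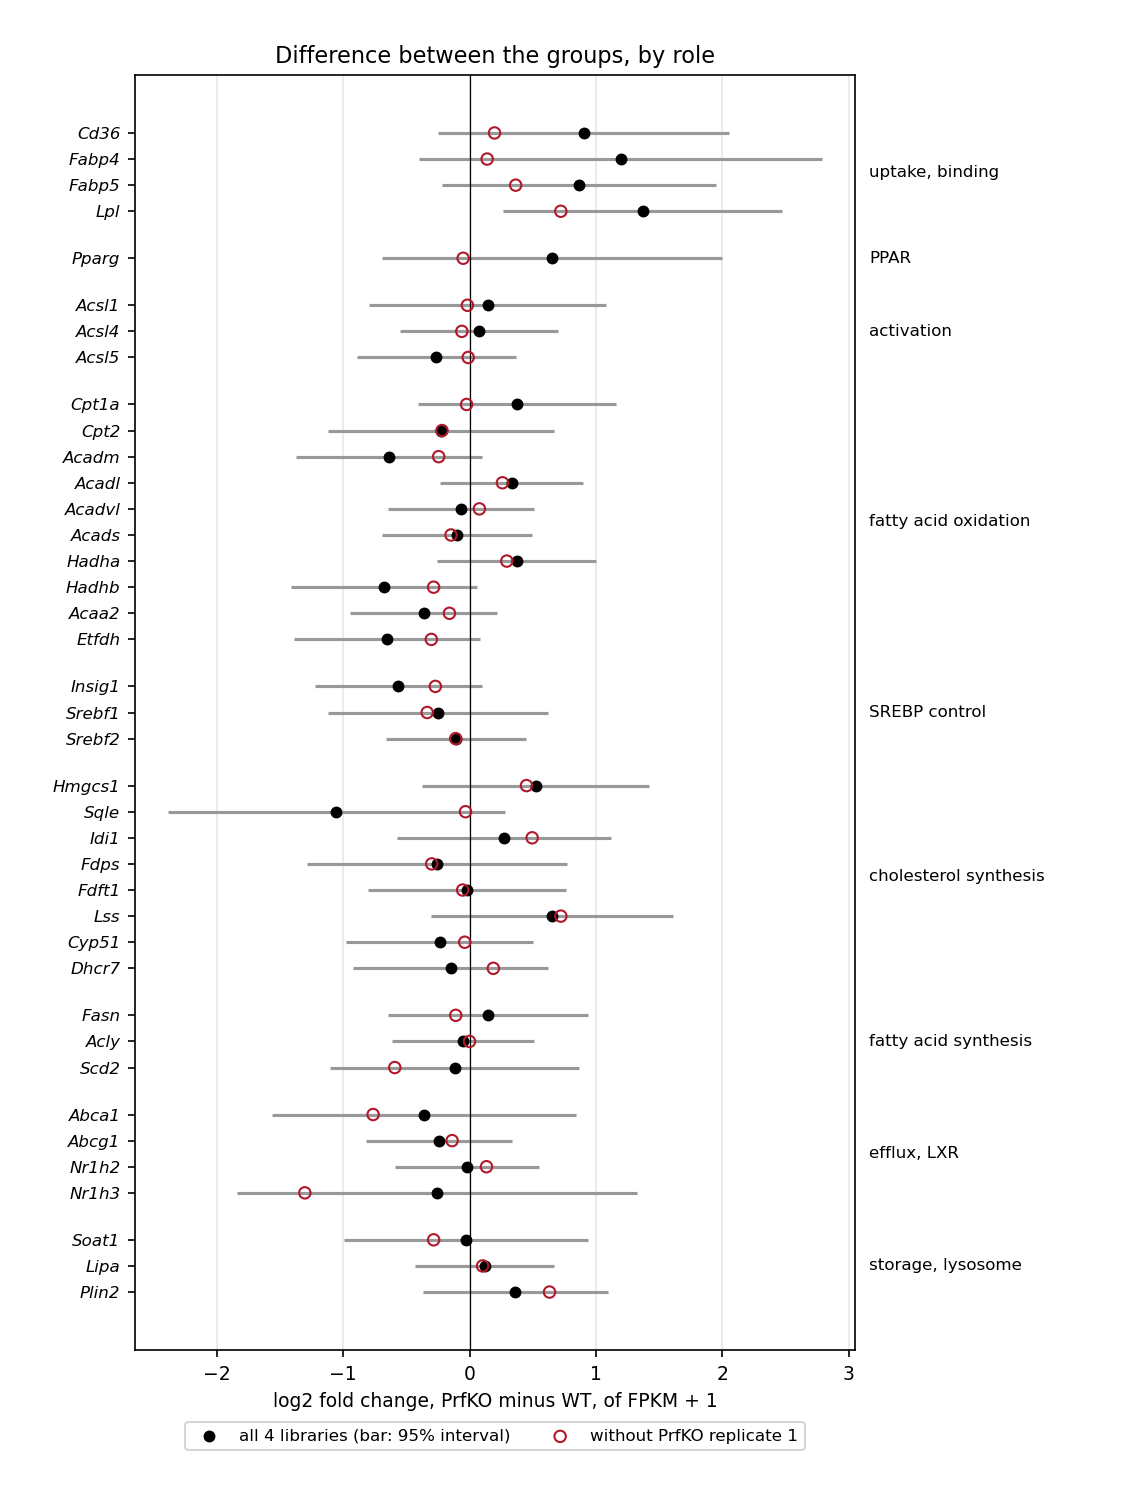
Log2 fold change of FPKM + 1, labelled knockout minus wild type, for the 39 kept genes by role, with filled points for all 4 libraries, grey bars for limma's 95% interval and open circles for the value without knockout-labelled replicate 1. The 4 uptake and binding genes have the most positive group of filled points (0.87 to 1.37), and their open circles lie between 0.14 and 0.72.

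Genes of fatty acid uptake and binding were the role with the largest differences. All 4 had a positive log2 fold change, with a median of 1.05, and all 4 had their highest value in knockout-labelled replicate 1, as did 25.2% of all tested genes. Fabp4 had a wild type mean of 0.916 FPKM, under the minimum of 1, and was kept through its value in that library. Lpl encodes lipoprotein lipase, the secreted enzyme that frees fatty acids from lipoproteins. It had 11.04 and 3.90 FPKM in the knockout-labelled libraries, against 2.27 and 1.70 FPKM in wild type. Both libraries labelled knockout lay above both wild type libraries, with a log2 fold change of 1.37 (SE 0.48, 95% interval 0.27 to 2.48, unadjusted p = 0.0208, limma adjusted p = 0.866).

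Cd36, the scavenger receptor for long-chain fatty acids, had 9.34 and 2.88 FPKM in the knockout-labelled libraries, against 2.70 and 2.10 FPKM in wild type. The groups did not overlap, but knockout-labelled replicate 2 lay only just above the wild type libraries (log2 fold change 0.90, SE 0.50). Fabp5 had 6.43 and 2.71 FPKM in the knockout-labelled libraries, against 1.38 and 2.50 FPKM in wild type (log2 fold change 0.87, SE 0.48), again without overlap. Fabp4, the binding protein of adipocytes, macrophages and capillary endothelium, had 7.79 and 1.03 FPKM in the knockout-labelled libraries, against 1.42 and 0.410 FPKM in wild type. Its groups overlapped, since wild type replicate 1 exceeded knockout-labelled replicate 2 (log2 fold change 1.19, SE 0.70). Fabp5 shares 41.3% of its longest transcript with near-identical copies elsewhere in the annotation, and its level is uncertain for that reason.

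Pparg encodes PPAR gamma, the nuclear receptor that drives lipid uptake genes in adipocytes and macrophages, with Cd36, Fabp4 and Lpl among its known targets. It had 3.77 and 0.795 FPKM in the knockout-labelled libraries, against 1.18 and 0.587 FPKM in wild type (log2 fold change 0.65, SE 0.59). These 5 genes and Sqle were the 6 of the 39 over 2-fold from every other library in knockout-labelled replicate 1, in FPKM + 1. That is 15.4%, against 5.60% of all tested genes. Pparg, like Fabp4, had a wild type mean under the minimum (0.883 FPKM) and was kept through its value in knockout-labelled replicate 1. Both are counted in the 15.4%, so the filter itself favoured their standing apart in that library. Without that library the median of the 4 uptake genes was 0.28, with Lpl at 0.72, Fabp5 at 0.36, Cd36 at 0.20 and Fabp4 at 0.14, and Pparg was at -0.051.

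The summed levels of markers of liver endothelial cells and of macrophages, cell types that express these uptake genes, were highest in the same library. The summed FPKM of 12 endothelial markers was 473 and 128 in the knockout-labelled libraries and 273 and 65.5 in wild type. Of these 12, 11 passed the minimum mean, and all 11 were ordered from high to low as knockout-labelled replicate 1, replicate 1 wild type, knockout-labelled replicate 2 and replicate 2 wild type. Among the 39 lipid genes 2 (5.13%) had this order, namely Fabp4 and Pparg, near the 4.47% of all tested genes. Both were kept through their value in knockout-labelled replicate 1, so the filter itself favoured an order with that library highest. The summed FPKM of 14 macrophage and Kupffer cell markers was 222 and 107 in the knockout-labelled libraries and 102 and 79.9 in wild type. Of the 9 above the minimum mean, 3 were higher and 2 lower in both knockout-labelled libraries, against 13.9% and 21.9% of all tested genes. Vsig4, among the 3 higher, had 3.99 and 0.178 FPKM in the knockout-labelled libraries and a listed 0 in both wild type libraries. It passed the minimum only through knockout-labelled replicate 1. Lpl, Cd36 and Fabp5 had knockout-labelled replicate 2 above both wild type libraries, as did the macrophage markers Csf1r (38.2 and 24.3 FPKM labelled knockout, 17.1 and 17.1 FPKM wild type) and Hmox1 (54.5 and 44.5 FPKM labelled knockout, 29.7 and 31.2 FPKM wild type). Of the same list, Spic (1.64 and 0.977 FPKM labelled knockout, 3.28 and 3.51 FPKM wild type) and Emr1 (0.615 and 1.16 FPKM labelled knockout, 1.19 and 1.65 FPKM wild type) were lower in both. C1qa, C1qb and C1qc were higher in wild type replicate 1 than in knockout-labelled replicate 2. These markers were picked out after their values were seen. The defining Kupffer cell marker Clec4f had 1.98 FPKM in knockout-labelled replicate 1 and was listed at 0 in replicate 2, against 0.0334 FPKM in wild type replicate 1 and a listed 0 in replicate 2. The part of these cells in the uptake gene values was not tested.

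Most hepatocyte markers were low. The albumin gene Alb had 7.65 and 0.172 FPKM in the knockout-labelled libraries and a listed 0 and 0.950 FPKM in wild type, and 3 of 13 hepatocyte markers were listed at 0 in every library, the transthyretin gene Ttr among them. The apolipoprotein gene Apoa2 had 10.4 FPKM in knockout-labelled replicate 1 and was listed at 0 in replicate 2, against a listed 0 and 1.28 FPKM in wild type. Over the whole hepatocyte list the summed FPKM was 36.2 and 20.2 in the knockout-labelled libraries and 23.9 and 30.8 in wild type. The haptoglobin gene Hp, which neutrophils also carry, made up 9.75 and 18.7 FPKM of this in the knockout-labelled libraries and 23.9 and 26.7 FPKM in wild type. Of the adipocyte and stellate cell list 4 genes were in the table, and Dcn had 11.2 and 0.313 FPKM in the knockout-labelled libraries against 0.0236 and 0.901 FPKM in wild type. The part of these cells in the values was not tested either.

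**Figure D3:**
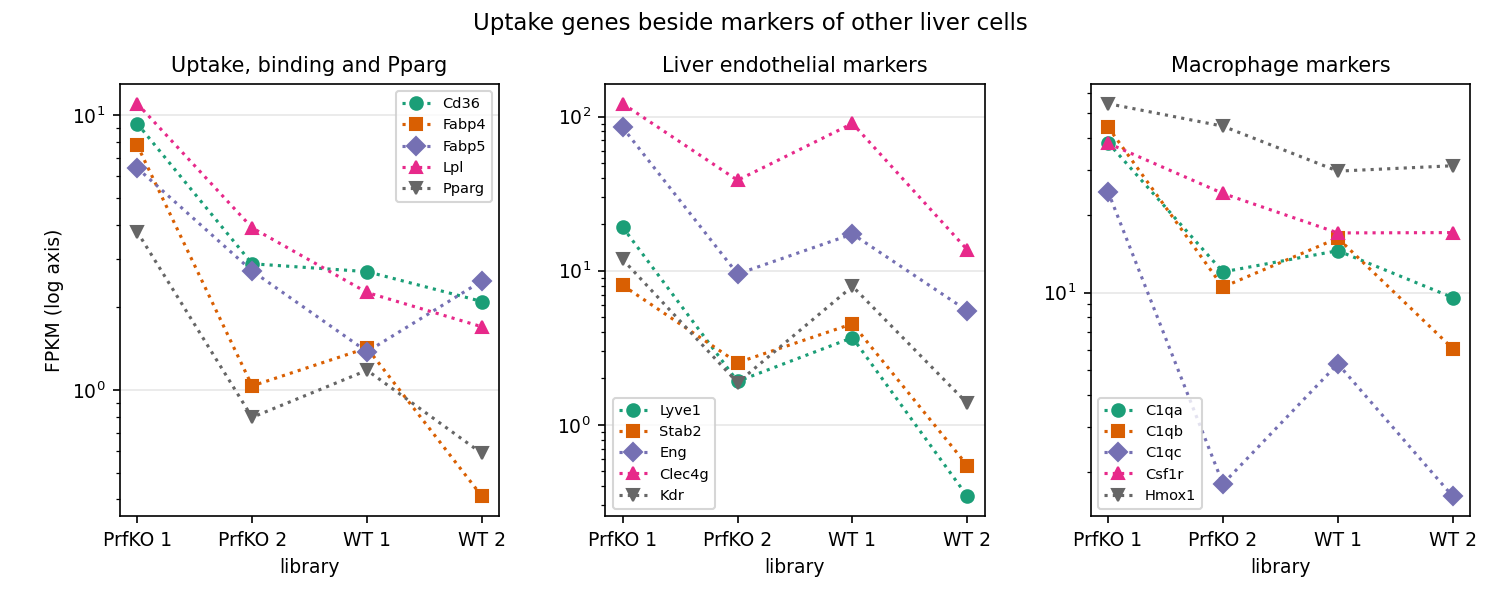
FPKM on a log axis in the 4 libraries for the 4 uptake genes and Pparg (left), for 5 of 12 liver endothelial markers (middle) and for 5 of 14 macrophage markers (right), with dotted lines that only link the points of a gene. PrfKO 1 is the highest library for every gene shown, and the endothelial markers shown are also higher in WT 1 than in PrfKO 2. Of all 9 macrophage markers above the minimum mean, PrfKO 1 was highest for 6 and lowest for 1, so the macrophage panel leaves out markers that go another way.

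The acyl-CoA synthetases, which couple free fatty acids to coenzyme A before any further use, had no common direction. Acsl5 was the most abundant of the 3 members, exceeding Acsl4 by 2.55-fold to 4.63-fold in FPKM within every library and Acsl1 by 12.4-fold to 27.8-fold. Exons of Acsl1 and Acsl5 overlap a gene on the opposite strand by up to 1039 and 167 bases, so both levels are uncertain. Acsl4, which prefers arachidonic acid, had 19.0 and 15.6 FPKM in the knockout-labelled libraries, against 16.0 and 16.7 FPKM in wild type. The 3 log2 fold changes lay between -0.26 and 0.14, and the groups overlapped for all 3.

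Genes of mitochondrial fatty acid oxidation lay in opposite directions within the same reaction cycle. Of 10 members, 2 were higher (Acadl and Hadha) and 5 lower (Hadhb, Etfdh, Acadm, Acaa2 and Cpt2) in both knockout-labelled libraries, against 13.9% and 21.9% of all tested genes, with a median log2 fold change of -0.16. After upper-quartile rescaling Cpt2 overlapped, which left 4 lower. Lpl apart, Hadhb, Etfdh and Acadm had the smallest unadjusted p-values of the 39 genes in limma's test, at 0.0675, 0.0763 and 0.0824.

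Among the acyl-CoA dehydrogenases, which take the first oxidation step on chains of different length, the medium-chain enzyme gene Acadm had 15.0 and 26.5 FPKM in the knockout-labelled libraries, against 28.6 and 34.8 FPKM in wild type (log2 fold change -0.64, SE 0.32, limma adjusted p = 0.866). The long-chain enzyme gene Acadl lay the other way, with 51.8 and 46.7 FPKM in the knockout-labelled libraries against 36.5 and 41.4 FPKM in wild type (log2 fold change 0.33, SE 0.25). The ratio of Acadl to Acadm was 3.46 and 1.76 in the knockout-labelled libraries, against 1.28 and 1.19 in wild type. This separation follows from the opposite directions of these genes and is no further result. The very-long-chain and short-chain enzyme genes Acadvl and Acads had log2 fold changes of -0.069 and -0.097, both of which came to at least 0 after upper-quartile rescaling.

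Etfdh passes the electrons of these dehydrogenases to ubiquinone. It had 8.78 and 14.8 FPKM in the knockout-labelled libraries, against 17.4 and 19.7 FPKM in wild type (log2 fold change -0.65, SE 0.32). Acaa2 had 101 and 134 FPKM in the knockout-labelled libraries, against 154 and 146 FPKM in wild type (log2 fold change -0.36, SE 0.25). In each of these genes knockout-labelled replicate 1 was the lowest library, as it was for 43.6% of all tested genes, and knockout-labelled replicate 2 lay closer to wild type. Without knockout-labelled replicate 1 the log2 fold changes were -0.30 for Etfdh, -0.25 for Acadm and -0.16 for Acaa2. Exons of Etfdh and Acadvl overlap a gene on the opposite strand by up to 278 and 377 bases, so both levels are uncertain.

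Carnitine palmitoyltransferase genes set the entry into the pathway. Cpt1a, the regulated outer-membrane enzyme of liver and lymphocytes, had 19.3 and 10.7 FPKM in the knockout-labelled libraries, against 9.96 and 11.96 FPKM in wild type (log2 fold change 0.37, SE 0.34), and a log2 fold change of -0.024 without knockout-labelled replicate 1. Cpt2, its inner-membrane partner, had 2.75 and 2.79 FPKM in the knockout-labelled libraries, against 4.01 and 2.88 FPKM in wild type. Its groups did not overlap, but wild type replicate 2 lay only just above the knockout-labelled libraries, and the log2 fold change of -0.23 was -0.041 without wild type replicate 1.

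Hadha and Hadhb encode the alpha and beta subunits of the mitochondrial trifunctional protein, which assembles as a complex of both and carries out the last steps on long chains. Their genes lie head to head on mouse chromosome 5, so a stretch between them serves as the upstream region of each. The values of the subunits lay in opposite directions, though neither passed the test, and a link to the shared stretch was not tested. The upstream sequences are shown because the genes share this stretch. They come from RefSeq on GRCm38.p6, a later build than the mm8 named for the deposited values, and run from 250 bases before to 50 after each annotated start. The Hadha window is chr5:30154931-30155230 on the minus strand and the Hadhb window is chr5:30155003-30155302 on the plus strand. Capitals mark the 228 bases that the windows share, read on opposite strands, with 272 bases between the annotated starts.
Hadha: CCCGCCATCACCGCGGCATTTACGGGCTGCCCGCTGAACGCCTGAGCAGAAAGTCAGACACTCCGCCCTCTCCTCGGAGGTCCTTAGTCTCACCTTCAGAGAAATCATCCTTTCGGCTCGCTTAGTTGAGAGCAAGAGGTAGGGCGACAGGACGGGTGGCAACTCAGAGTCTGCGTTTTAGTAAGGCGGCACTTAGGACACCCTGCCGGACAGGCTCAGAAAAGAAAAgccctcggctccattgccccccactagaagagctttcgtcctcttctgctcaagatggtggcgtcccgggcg
Hadhb: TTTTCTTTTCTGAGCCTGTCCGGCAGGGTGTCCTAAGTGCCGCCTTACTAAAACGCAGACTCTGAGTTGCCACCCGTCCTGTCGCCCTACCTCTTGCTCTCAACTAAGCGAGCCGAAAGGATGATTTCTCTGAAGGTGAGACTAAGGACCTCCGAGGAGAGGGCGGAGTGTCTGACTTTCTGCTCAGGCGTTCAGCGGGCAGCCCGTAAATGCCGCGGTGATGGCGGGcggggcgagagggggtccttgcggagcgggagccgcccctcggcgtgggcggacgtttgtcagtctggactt

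Hadha had 54.1 and 48.4 FPKM in the knockout-labelled libraries, against 32.4 and 47.4 FPKM in wild type (log2 fold change 0.37, SE 0.28, 95% interval -0.26 to 1.00). Hadhb had 11.9 and 21.3 FPKM in the knockout-labelled libraries, against 27.5 and 24.8 FPKM in wild type (log2 fold change -0.68, SE 0.32, 95% interval -1.42 to 0.06). The groups did not overlap for either gene, in opposite directions, and neither passed the test. The ratio of Hadha to Hadhb within a library was 4.54 and 2.27 in the knockout-labelled libraries, against 1.18 and 1.91 in wild type. That the ratio separates the groups follows from the opposite directions of these genes and is no further result. The value of 4.54 is that of the library that stood apart. Without it the log2 fold changes were 0.29 for Hadha and -0.29 for Hadhb. Without wild type replicate 1 that of Hadha was 0.11, since knockout-labelled replicate 2 and wild type replicate 2 were nearly equal, and that of Hadhb was -0.61. Near-identical copies elsewhere in the annotation cover 69.7% of the longest Hadhb transcript, and an exon of Hadha overlaps Garem2 on the opposite strand by up to 75 bases, so the levels of both are uncertain.

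**Figure D4:**
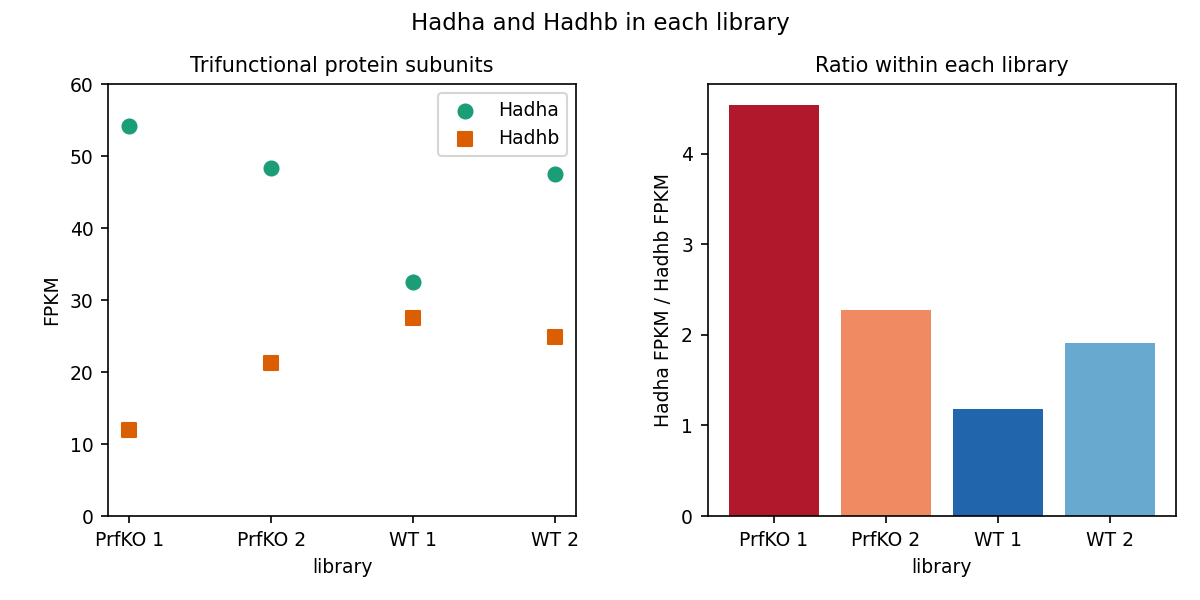
FPKM of Hadha and Hadhb in each library (left) and the ratio of Hadha to Hadhb within each library (right), with PrfKO 1 and PrfKO 2 labelled knockout and WT 1 and WT 2 wild type. The ratio is 4.54 and 2.27 in the knockout-labelled libraries and 1.18 and 1.91 in wild type, a separation that follows from the opposite directions of these genes.

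Further genes of fatty acid oxidation, from a list that did not include the members, were lower in both knockout-labelled libraries for 7 of 21 and higher in both for 3, against 21.9% and 13.9% of all tested genes, with 0 past the test. Here and in the lists of further lipid genes that follow, 21 genes are named, and without knockout-labelled replicate 1 the log2 fold change turned sign for 2 of them (Dbi and Acat2) and came nearer to 0 by over 1.5 times for 12. Over the 21 further genes of fatty acid oxidation the median log2 fold change was -0.23. The lowest p-values belonged to Hsd17b10, a mitochondrial dehydrogenase that acts on short branched chains, with 34.9 and 64.9 FPKM in the knockout-labelled libraries against 90.2 and 89.9 FPKM in wild type (log2 fold change -0.90, SE 0.32, limma adjusted p = 0.866). Eci2, an enoyl-CoA isomerase for unsaturated chains, had 24.4 and 35.4 FPKM in the knockout-labelled libraries against 49.2 and 45.02 FPKM in wild type (log2 fold change -0.66, SE 0.28). Etfb, a subunit of the flavoprotein that hands electrons to Etfdh, had a log2 fold change of -0.63. Eci2 overlaps an antisense transcript and Etfb shares 70.1% of its longest transcript with an overlapping model, so both are uncertain. Of 5 further genes of uptake and activation that passed the minimum mean, 0 were higher and 0 lower in both. The fatty acid transporter gene Slc27a4 had a log2 fold change of -0.23, Acsf3, a mitochondrial synthetase gene, one of -0.18, and Dbi, which encodes acyl-CoA binding protein, one of 0.094.

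Srebf2, which encodes the transcription factor SREBP2 that switches on the cholesterol synthesis genes, was the most even of the lipid regulators. It had 39.8 and 39.6 FPKM in the knockout-labelled libraries, against 43.0 and 42.7 FPKM in wild type. The groups did not overlap, though they did after upper-quartile rescaling, and the difference was small (log2 fold change -0.11, SE 0.24, 95% interval -0.66 to 0.44), and it lay between -0.016 and -0.0038 under 3 other scalings. Srebf2 exceeded Srebf1, the gene of the factor that favours fatty acid synthesis, by 7.57-fold to 12.04-fold within every library. Insig1, the sterol sensor that holds SREBP in the endoplasmic reticulum and is itself a SREBP target, had 17.4 and 26.6 FPKM in the knockout-labelled libraries, against 33.3 and 31.3 FPKM in wild type. Both libraries labelled knockout lay below both wild type ones (log2 fold change -0.56, SE 0.29, limma adjusted p = 0.866), and the log2 fold change was -0.27 without knockout-labelled replicate 1 and -0.86 without replicate 2.

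The enzymes of cholesterol synthesis did not go one way. Of 8 members, 2 were higher (Hmgcs1 and Lss) and 1 lower (Fdps) in both knockout-labelled libraries, against 13.9% and 21.9% of all tested genes. Fdps overlapped after upper-quartile rescaling. The median log2 fold change was -0.086, and it lay between -0.29 without wild type replicate 1 and 0.078 without knockout-labelled replicate 1. Sqle, the squalene epoxidase at the first oxygen-requiring step, had 2.47 and 13.3 FPKM in the knockout-labelled libraries, against 15.7 and 11.9 FPKM in wild type (log2 fold change -1.05, SE 0.58). Only knockout-labelled replicate 1 was low, and without it the value was -0.032.

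Lss, the lanosterol synthase that acts directly after Sqle, had 7.49 and 8.37 FPKM in the knockout-labelled libraries, against 2.87 and 7.33 FPKM in wild type (log2 fold change 0.65, SE 0.42). Hmgcs1, which makes HMG-CoA at the start of the pathway, had 6.39 and 5.69 FPKM in the knockout-labelled libraries, against 2.68 and 5.52 FPKM in wild type (log2 fold change 0.52, SE 0.39). In both genes wild type replicate 1 was the low library and the other 3 were close together. Without wild type replicate 1 the log2 fold changes were 0.098 for Lss and 0.11 for Hmgcs1.

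Idi1, Cyp51 and Dhcr7, which act at the isoprenoid, lanosterol and last steps of the pathway, had overlapping groups, with log2 fold changes of 0.27, -0.24 and -0.15. Fdft1, the squalene synthase gene, was nearly level at 4.73 and 4.47 FPKM in the knockout-labelled libraries against 4.65 and 4.71 FPKM in wild type. Fdps had 1.49 and 1.35 FPKM in the knockout-labelled libraries, against 1.62 and 2.20 FPKM in wild type. It is uncertain, because near-identical sequences of 5 other annotated genes cover 91.4% of its longest transcript. Idi1 has copies that cover 33.3%, and exons of Hmgcs1, Idi1, Lss, Cyp51 and Fdft1 lie across from exons of a different gene on the other strand, and libraries without strand information cannot separate them.

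Hmgcs1 is shown with its upstream sequence because it is the cholesterol synthesis member whose window held the letters of a sterol regulatory element, the site that SREBP factors bind. The letters searched were TCACNCCAC on both strands, in RefSeq windows on GRCm38.p6 from 250 bases before to 50 after each annotated start, with no overlap with another motif counted. Of the 42 members 33 had such a window. Among the cholesterol synthesis members, Sqle, Fdps and Fdft1 had none and were not searched. Of the 33, 2 held the letters, Hmgcs1 and Acsl1, against 1.44% of all 27025 genes with a window. The Hmgcs1 window is chr13:119690101-119690400 on the plus strand, with the motif in capitals.
Hmgcs1: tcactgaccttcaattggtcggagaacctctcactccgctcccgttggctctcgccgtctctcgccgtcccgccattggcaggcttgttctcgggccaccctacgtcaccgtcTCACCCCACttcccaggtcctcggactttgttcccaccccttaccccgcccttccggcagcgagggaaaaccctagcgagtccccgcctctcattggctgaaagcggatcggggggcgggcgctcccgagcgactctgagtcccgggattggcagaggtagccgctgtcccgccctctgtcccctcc
A match is a description of these letters and not a binding site shown by these data.

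Further genes of cholesterol synthesis were lower in both knockout-labelled libraries for 1 of 13 and higher in both for 1, both shares below those of all tested genes (21.9% and 13.9%), with a median log2 fold change of -0.19 and 0 past the test. Mvd, the mevalonate decarboxylase gene, had 5.10 and 10.3 FPKM in the knockout-labelled libraries against 13.2 and 12.6 FPKM in wild type (log2 fold change -0.74, SE 0.36, limma adjusted p = 0.866). The sterol dehydrogenase gene Nsdhl had a log2 fold change of -0.72. The acetoacetyl-CoA thiolase gene Acat2 had -0.49, and 65.6% of its longest transcript is shared with other genes. In a list of sterol uptake and SREBP processing genes, 2 of 11 were higher and 4 lower in both, against 13.9% and 21.9% of all tested genes. Scarb1, the HDL receptor gene, had 23.8 and 17.3 FPKM in the knockout-labelled libraries against 13.0 and 15.0 FPKM in wild type (log2 fold change 0.51, SE 0.29). Npc1, whose product moves cholesterol out of lysosomes, had 1.73 and 2.19 FPKM in the knockout-labelled libraries against 3.42 and 4.06 FPKM in wild type (log2 fold change -0.68, SE 0.40), and overlaps another gene on the opposite strand. Stard4, a sterol carrier gene, had a log2 fold change of -0.30.

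Fatty acid synthesis genes showed small differences. Acly had 79.8 and 85.7 FPKM in the knockout-labelled libraries, against 77.6 and 94.7 FPKM in wild type (log2 fold change -0.052, 95% interval -0.61 to 0.51), and its sign turned under all 3 other scalings. Fasn, the fatty acid synthase gene, had 7.55 and 4.999 FPKM in the knockout-labelled libraries, against 5.47 and 5.48 FPKM in wild type. Scd2, a desaturase gene, had 5.28 and 2.25 FPKM in the knockout-labelled libraries, against 4.15 and 3.65 FPKM in wild type. The groups overlapped for all 3, and the knockout-labelled libraries bracketed the wild type ones for Fasn and Scd2. Acaca, under the minimum mean, had 0.560 and 0.795 FPKM in the knockout-labelled libraries and 0.267 and 0.579 FPKM in wild type.

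Of 14 further genes of fatty acid synthesis and esterification, 3 were higher and 4 lower in both knockout-labelled libraries, near the 13.9% and 21.9% of all tested genes, with 0 past the test. Dgat2, which forms triglyceride, was listed at 0 in replicate 1 and had 0.656 FPKM in replicate 2 of the knockout-labelled libraries. In wild type it had 1.89 and 1.64 FPKM (log2 fold change -1.10, SE 0.54). Dgat2 is among the 4 lower, and it passed the minimum mean only through its wild type values (knockout-labelled mean 0.328 FPKM). Lpin1, a phosphatidate phosphatase gene, had 29.7 and 28.01 FPKM in the knockout-labelled libraries against 24.8 and 20.0 FPKM in wild type (log2 fold change 0.36, SE 0.26). The elongase gene Elovl1 had a log2 fold change of -0.40.

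Among the LXR receptors, Nr1h2 was abundant and Nr1h3, the LXR alpha gene of macrophages and liver, was scarce. Nr1h2 had 118 and 146 FPKM in the knockout-labelled libraries, against 141 and 125 FPKM in wild type (log2 fold change -0.020, 95% interval -0.59 to 0.55), and its sign turned under all 3 other scalings. Nr1h3 had 3.83 and 0.133 FPKM in the knockout-labelled libraries, against 2.44 and 1.27 FPKM in wild type. The knockout-labelled libraries were the highest and the lowest of the 4, and Nr1h2 exceeded Nr1h3 by at least 30.8-fold in each library.

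The sterol exporter gene Abcg1, an LXR target, had 26.5 and 30.7 FPKM in the knockout-labelled libraries, against 35.0 and 32.8 FPKM in wild type, lower in both (log2 fold change -0.24, SE 0.25). Abca1, the other main exporter gene, had 1.52 and 0.439 FPKM in the knockout-labelled libraries, against 1.16 and 1.76 FPKM in wild type, with overlap. Of 9 further genes of efflux, lipoproteins and nuclear receptor partners, 2 were higher and 2 lower in both, near the 13.9% and 21.9% of all tested genes. The corepressor gene Ncor1 had 56.1 and 27.6 FPKM in the knockout-labelled libraries against 19.6 and 24.9 FPKM in wild type (log2 fold change 0.81, SE 0.36). Rxrb and Rxra encode retinoid X receptors, with which LXR and PPAR pair. Rxrb had 35.7 and 12.6 FPKM in the knockout-labelled libraries against 11.6 and 11.9 FPKM in wild type, with a log2 fold change of 0.81, and 0.093 without knockout-labelled replicate 1. That of Rxra was -0.73.

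Genes of storage and lysosomal release had log2 fold changes between -0.028 and 0.36. Lipa encodes the lysosomal acid lipase, which is known to supply fatty acids for oxidation in mouse memory CD8 T cells. It had 46.3 and 45.2 FPKM in the knockout-labelled libraries, against 41.4 and 42.6 FPKM in wild type, higher in both by a small amount (log2 fold change 0.12, SE 0.24). Plin2, the coat protein gene of lipid droplets, had 18.8 and 27.9 FPKM in the knockout-labelled libraries, against 14.3 and 21.6 FPKM in wild type (log2 fold change 0.36, SE 0.32), and the groups overlapped. After upper-quartile rescaling Plin2 was higher in both knockout-labelled libraries. Soat1, which esterifies cholesterol and is known to limit membrane cholesterol in CD8 T cells, had 5.48 and 3.54 FPKM in the knockout-labelled libraries, against 3.09 and 6.48 FPKM in wild type.

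Of 10 further genes of storage and lipolysis, 0 were higher and 2 lower in both knockout-labelled libraries, the lower share near the 21.9% of all tested genes. Soat2, the related esterifying enzyme of hepatocytes and intestine, had 3.33 and 6.07 FPKM in the knockout-labelled libraries against 13.6 and 7.56 FPKM in wild type (log2 fold change -1.02, SE 0.40, limma adjusted p = 0.866). G0s2, an inhibitor of the triglyceride lipase ATGL, had 21.4 and 45.7 FPKM in the knockout-labelled libraries against 48.98 and 53.6 FPKM in wild type (log2 fold change -0.69, SE 0.35). The droplet coat gene Plin3 had a log2 fold change of -0.53. G0s2 is also abundant in neutrophils, and the summed FPKM of 10 neutrophil markers was 106 and 143 in the knockout-labelled libraries against 229 and 243 in wild type. The part of neutrophils in the G0s2 values was not tested.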

How the data were processed

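The authors deposited 1 value per gene symbol and library, read here as FPKM. The values are not whole and do not sum to a common total, which does not settle the unit. The submitters' processing notes name Bowtie 0.12.2 and the build mm8 but give neither a role. The sources used here do not name the tool, annotation or filters behind the values. Libraries came from a TruSeq RNA kit that does not mark strand, per the labels' protocols.

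Groups and replicate numbers came from the sample titles. With no rescaling, log2(FPKM + 1) was fitted by limma 3.58.1 under R 4.3.3 (intensity trend, two-sided, Benjamini-Hochberg over the 9805 genes with a mean of at least 1, threshold 0.05), and the procedure was tested on simulated data. Fold changes on this scale understate changes of weakly expressed genes. All kept members are named, other lipid genes by the smallest unadjusted p in their list (up to 3), and markers by their lists. The members and lists were chosen with earlier results of these data known. Overlaps and near-identical copies (blastn 2.17.0, at least 95% identity) come from GENCODE M21. Alternatives were the replicate block, each library left out, other scalings, pseudocounts, filters, moderation and threshold. Figures were drawn with matplotlib 3.10.9.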

Additional observations from a re-analysis of the deposited data

How the results depend on the processing

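With the replicate numbers as a block, 0 of 9805 genes and 0 of the 39 lipid genes passed limma's test, as without it. In this balanced layout the block leaves every fold change as it is. Numbered pairs deviated together only weakly (correlation 0.068 across genes), and nothing in the labels says that they pair. No lipid gene passed under any alternative tried. Over all genes 0 to 1 passed with 1 library left out.

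With 1 library left out, 10 to 17 of the 39 lipid genes were higher and 12 to 17 lower, beside the shares of all tested genes given above. With a mean of at least 5 required, 5 of the members that remained were higher in both knockout-labelled libraries. Lpl, Cd36 and Fabp5, with means of 4.72, 4.25 and 3.25 FPKM, were no longer counted. No share over all genes was taken at this filter, so the 5 cannot be read against one. The median log2 fold change of the 39 was -0.041 to 0.043 with 1 library left out, 0.049 with upper-quartile and 0.041 with median scaling. By role, with 1 library left out, it was 0.28 to 1.81 for uptake and binding, -0.31 to -0.098 for oxidation, -0.15 to 0.21 for activation, -0.53 to -0.10 for SREBP control, -0.11 to 0.36 for fatty acid synthesis, -0.29 to 0.078 for cholesterol synthesis, -0.45 to -0.065 for efflux and LXR, and 0.081 to 0.41 for storage. The efflux and LXR median was -0.48 at a pseudocount of 0.1 and -0.069 at 5.

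The sign was kept in all 4 fits without a library for 21 of 39 genes, and 3 (Acadl, Srebf2 and Lipa) also stayed within 1.5 times. The others turned, with ranges of -0.024 to 0.77 for Cpt1a, -0.22 to 0.077 for Acadvl, -0.23 to 0.030 for Acads, -0.15 to 0.43 for Acsl1, -0.062 to 0.21 for Acsl4, -0.051 to 1.36 for Pparg, -0.17 to 0.72 for Idi1, -0.055 to 0.012 for Fdft1, -0.48 to 0.0040 for Cyp51, -0.49 to 0.19 for Dhcr7, -0.53 to 0.029 for Srebf1, -0.11 to 0.40 for Fasn, -0.19 to 0.091 for Acly, -0.59 to 0.36 for Scd2, -0.76 to 0.043 for Abca1, -0.17 to 0.13 for Nr1h2, -1.30 to 0.79 for Nr1h3 and -0.46 to 0.41 for Soat1. Under upper-quartile scaling 6 turned, namely Acadvl (0.031), Acads (0.0015), Fdft1 (0.063), Acly (0.049), Nr1h2 (0.081) and Soat1 (0.058). Under median scaling Acadvl (0.022), Fdft1 (0.056), Acly (0.041), Nr1h2 (0.072) and Soat1 (0.050) turned, and under quantile normalization Acadvl (0.037), Acly (0.042) and Nr1h2 (0.063). The cause was not tested. Read depth is unknown. The half-width of the 95% interval was 0.55 to 1.60 over the 39 genes, with a median of 0.78, and no difference among them passed the test, so neither small nor larger differences could be told from the spread between libraries.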
